A study of Mus musculus with 3 samples.

Results

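Poison exons (PEs) were described across all coding genes of the mouse, in RNA crosslinked to Tra2β in the adult testis. A PE was taken from the GENCODE vM39 annotation as an internal exon of a transcript marked for nonsense-mediated decay (NMD) that lay wholly inside an intron of the gene's canonical transcript and overlapped no exon of any protein-coding transcript of that gene. Overlapping versions were merged, and the genes Tra2a and Tra2b were left out. The rule gave 8964 PEs in 5443 of 21770 protein-coding genes and in 7770 introns, out of 186959 internal exons examined in all. The rule used no crosslink value, but it was chosen with earlier results of these data known. The other exons were 11589 coding cassette exons, which also lie wholly in an intron of the canonical transcript but belong to protein-coding transcripts, and 166406 internal exons of canonical transcripts, both from all coding genes.

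The samples were 3 biological replicate iCLIP libraries of testes from adult wild type mice, the only group, with no treatment other than the pull-down by a polyclonal antibody against Tra2b (Abcam, ab31353). Whole testes were minced, so the cells were mixed, and cells were irradiated with ultraviolet light, which joins proteins covalently to RNA in contact with them. Reverse transcription mostly ends next to such a joint, so a crosslink here is 1 unique cDNA ending at 1 nucleotide. There was no input, control antibody or knockout library, and each comparison was therefore made within a library between parts of the same genes. Depth was 348033, 619571 and 488719 crosslinks in replicates 1, 2 and 3. All 9 germ cell markers, among them Odf2, Ddx4 and Tnp1, held crosslinks, at 8.51 per kb of gene over the 3 libraries summed, against 4.33 for 4 Leydig cell markers, 2.13 for 4 Sertoli cell markers, of which Amh was at 0, 0.277 for 2 peritubular markers, and 0.339 for 4 markers of other tissues. Of these last, Alb was at 0 and Ins2, the gene of insulin, held 38, and the list held 7, 32 and 3 crosslinks in replicates 1, 2 and 3.

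A poison exon carries or brings about a premature stop codon when it is spliced in, and the mRNA is then a substrate for NMD, the pathway that degrades mRNAs whose stop codon lies well upstream of an exon junction. Genes of splicing regulators use such exons to hold back their own expression, and Tra2β, an SR-like protein that binds RNA rich in GAA, does so through an exon of its own gene. Testis splices many alternative exons, and germ cells in meiosis are among the cells in which Tra2β is abundant.

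The stop codon of the NMD transcript lay inside the exon in 7290 of the 8964 PEs and downstream of the exon in 1201. A further 448 PEs lay after the stop codon and 22 before the start codon, and 3 held the start codon or an open end of the coding sequence. The median length of a PE was 114 nt, with quartiles of 81 and 161 nt and extremes of 3 and 5421 nt. The length was a multiple of 3 in 30.4% of PEs and in 52.5% of coding cassette exons. GAA was present at least once in 87.0% of PEs, 79.1% of cassette exons and 91.0% of canonical internal exons. Its mean frequency per 100 nt was 2.16 in PEs, 2.19 in cassette exons and 2.53 in canonical internal exons, and purines made up 50.4%, 51.3% and 53.0% of bases in the same order. By these measures PEs held about as much GAA as cassette exons and less than canonical exons.

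Most PEs held no crosslink. Of the 8964, 7876 (87.9%) had none in any library, 789 had exactly 1 in all, 39 had at least 5 and 9 had at least 10. The most in any PE was 15. The number of PEs with a crosslink was 357, 512 and 482 in replicates 1, 2 and 3, and 51 had at least 1 in each library. The 1709 crosslinks in PEs lay at 1688 nucleotides, of which 9 were hit in 2 libraries and 0 in all 3. No small set of PEs dominated the total, since the 10 with most crosslinks held 6.67% of it. For comparison, 11.4% of cassette exons and 33.8% of canonical internal exons had at least 1 crosslink.

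**Figure D1:**
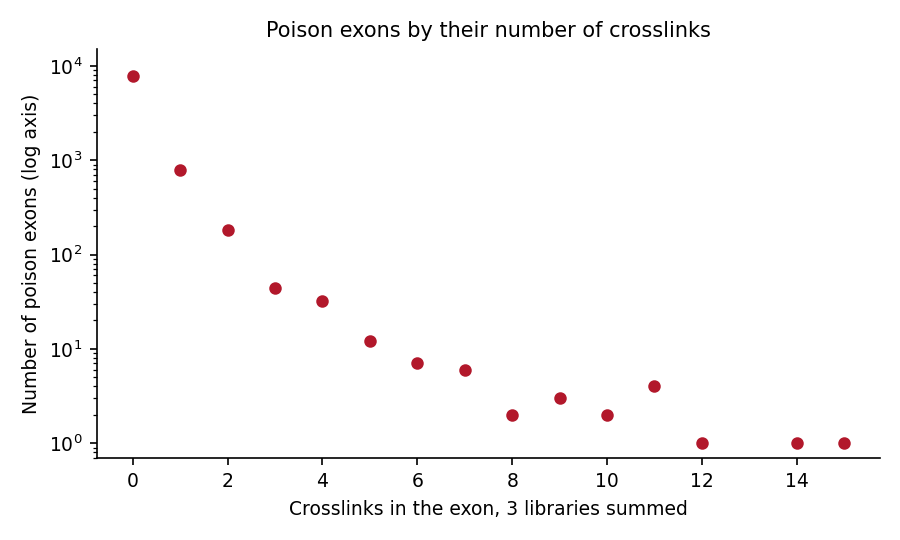
Number of PEs (vertical, log axis) by the crosslinks they held over the 3 libraries summed (horizontal). A single point at 0 stands for 7876 PEs and the next for 789, while the PEs to the right of 9 crosslinks number 9 in all.

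Depth sets what a count of 0 means here. A count of 0 allows up to 3 crosslinks, and at the density of their own host intron only 37 PEs (0.413%) would have held more than 3. The median PE was expected to hold 0.0438 crosslinks, and 2584 PEs lay in an intron with no other crosslink. So the absence of a crosslink from a single PE was below detection for nearly all of them, and the values below are first given over all PEs together. These limits cover counting error only.

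The first question was whether PEs were crosslinked more densely than the intron that surrounds them. They were, by a small factor in each library. PEs held 434, 666 and 609 crosslinks in replicates 1, 2 and 3, against 369, 526 and 488 expected at the density of the rest of each host intron. The ratio of observed to expected crosslinks was 1.18, 1.27 and 1.25, or 1.23 ± 0.0475 (SD, n = 3). The 3 values lay above 1 by several times their spread. With 3 libraries the smallest two-sided p that exact sign flipping can give is 0.25, so none was computed.

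Coding cassette exons stood higher over their introns, and canonical exons far higher. The ratio for cassette exons was 2.23, 1.93 and 3.10 in replicates 1, 2 and 3, or 2.42 ± 0.609 (SD, n = 3). For internal canonical exons, set against the introns on both sides, it was 14, 8.39 and 21.7, or 14.7 ± 6.69 (SD, n = 3). PEs lay below cassette exons in every library, with a log2 difference in the ratio of -0.92, -0.61 and -1.31, or -0.95 ± 0.35 (SD, n = 3). The 3 classes therefore kept 1 order in each library and their values did not overlap. While the ratio of canonical exons ranged from 8.39 to 21.7 between libraries, that of PEs ranged from 1.18 to 1.27.

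Relative to spliced exons, PEs were crosslinked less densely in each library. The density in PEs relative to the exons of the canonical transcript was 0.205, 0.367 and 0.139 in replicates 1, 2 and 3, or 0.237 ± 0.118 (SD, n = 3). Cassette exons gave 0.349, 0.559 and 0.297, or 0.401 ± 0.139 (SD, n = 3), again above PEs in each library. Replicate 2 was highest in both classes, and it was also the library in which canonical exons stood least above their introns. The density of crosslinks depends both on contact with Tra2β and on how much RNA holds the exon. As no RNA-seq library was analysed here, how often each PE is spliced in was not measured, and the 2 cannot be told apart. In a whole testis, fewer cells of a type and less RNA per cell cannot be told apart either.

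**Figure D2:**
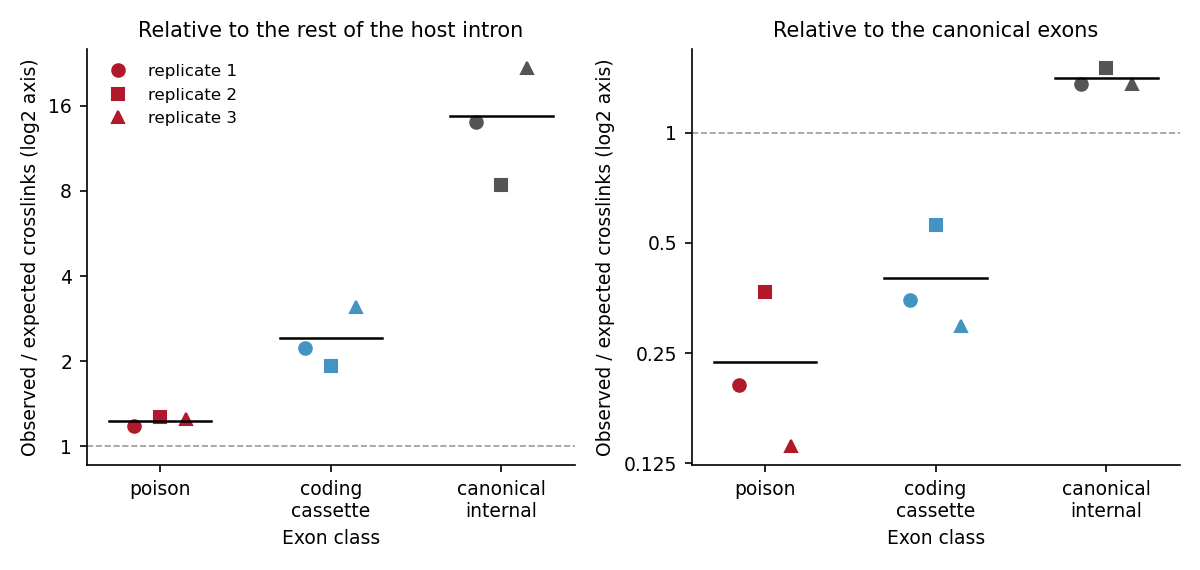
Observed over expected crosslinks for PEs, coding cassette exons and canonical internal exons, relative to the rest of the host intron (left) and to the exons, or for canonical exons the other exons, of the canonical transcript (right), on log2 axes. Each symbol is 1 library, bars are means of 3 and the dashed line is a ratio of 1. PEs sit at 1.18 to 1.27 over their introns and at 0.139 to 0.367 of canonical exons.

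Within PEs, the ratio to the host intron rose with the content of GAA, the core of the sequence that Tra2β binds. The 1169 PEs without GAA had a ratio of 0.811, 0.824 and 1.04 in replicates 1, 2 and 3, or 0.891 ± 0.128 (SD, n = 3). The 3541 PEs with up to 2 GAA per 100 nt had 1.08 ± 0.0453, and the 3235 with over 2 to 4 had 1.29 ± 0.145. The 1019 PEs with over 4 GAA per 100 nt had 2.13, 2.44 and 2.01, or 2.20 ± 0.223 (SD, n = 3), from 61, 106 and 74 crosslinks. In each library this last group lay above the other 3, and its values did not overlap theirs.

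The same step was seen when PEs of like length were compared. Among PEs of 81 to 300 nt the ratio was 0.718 ± 0.160 without GAA, 1.16 ± 0.0827 and 1.33 ± 0.137 in the middle groups, and 2.35 ± 0.436 with over 4 GAA per 100 nt (SD, n = 3). Against 500 nt of intron on each side, in place of the whole intron, PEs with over 4 GAA per 100 nt still had a ratio of 2.02 ± 0.345, but those without GAA had 1.18 ± 0.220 and no longer lay lowest. Leaving out the exons called below from the group richest in GAA gave 2.03 ± 0.259. The groups were not tested against each other, since 3 libraries allow no p under the threshold.

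A rise toward GAA-rich exons was also seen in the other classes. Cassette exons with over 4 GAA per 100 nt had a ratio of 4.89 ± 0.924 against 1.62 ± 0.606 for those without GAA, and canonical internal exons 27.9 ± 10.3 against 9.50 ± 4.96 (SD, n = 3). In each class and library the group richest in GAA was highest. PEs richest in GAA thus reached the level of cassette exons of middle GAA content, which was 2.34 ± 0.976 with up to 2 and 2.04 ± 0.191 with over 2 to 4 GAA per 100 nt.

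**Figure D3:**
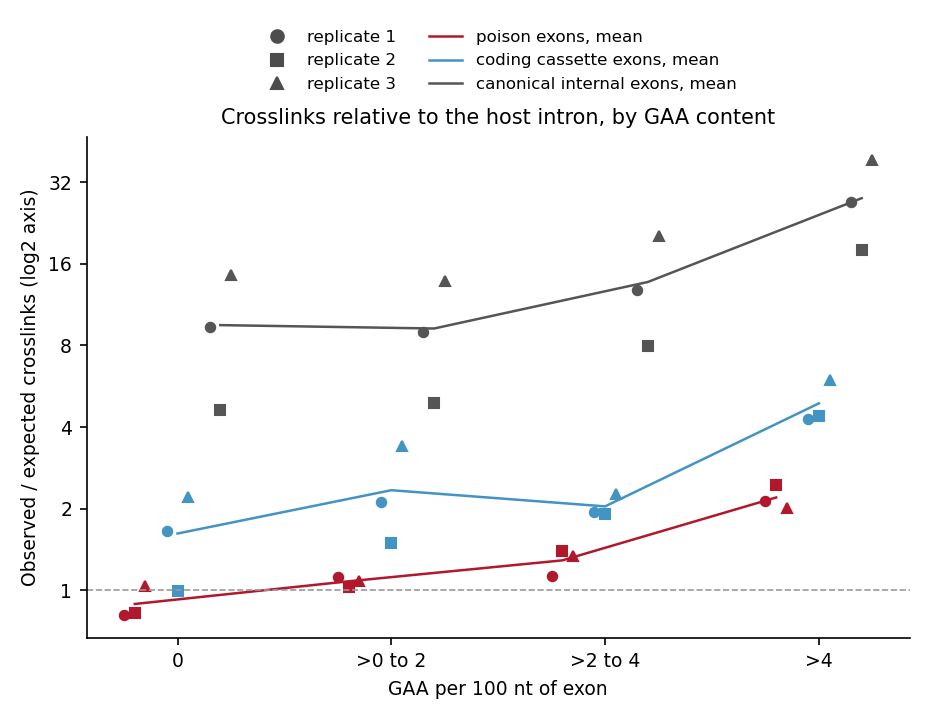
Observed over expected crosslinks relative to the host intron (vertical, log2 axis) by GAA per 100 nt of exon (horizontal), for PEs, coding cassette exons and canonical internal exons. Symbols are libraries, lines join the means of 3 and the dashed line is a ratio of 1. PEs go from 0.891 without GAA to 2.20 with over 4 per 100 nt, and the other classes also end at their highest value.

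At the scale of single nucleotides the relation to GAA was weak in PEs. Crosslinks lay within 10 nt of a GAA in 41.2%, 53.2% and 45.2% of cases in replicates 1, 2 and 3, where 41.6%, 43.1% and 41.2% of the nucleotides of the same exons did, each exon weighted by its crosslinks. The ratio was 0.992, 1.23 and 1.1, or 1.11 ± 0.122 (SD, n = 3), so replicate 1 showed no excess. Cassette exons gave 1.07 ± 0.0635 and canonical internal exons 1.08 ± 0.0598, and the 3 classes overlapped.

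Other properties went with smaller or no differences. PEs with the stop codon inside had a ratio to the host intron of 1.24 ± 0.0559, those with the stop downstream 1.12 ± 0.0753, and those after the stop 1.21 ± 0.194 (SD, n = 3), ranges that overlapped. PEs in first introns, 1857 in number, had 1.19 ± 0.193 and those in later introns 1.24 ± 0.0738. The 470 PEs of over 300 nt had 1.04 ± 0.102, below the 1.29 to 1.31 of the shorter groups, and their values lay below all of the shorter groups' in each library. In genes whose canonical exons held 50 or more crosslinks the ratio was 1.41 ± 0.0830 for PEs and 3.92 ± 1.78 for cassette exons. Genes with under 10 gave 1.12 ± 0.115 and 1.50 ± 0.0763. The gap between the classes was thus widest in the genes with most crosslinks.

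Along the exon, the density of crosslinks in PEs was close to that of the adjoining intron. Among 7277 PEs longer than 60 nt with clear intron on both sides, it was 0.364 ± 0.0590 per kb in the last 50 nt of intron upstream, 0.397 ± 0.118 in the first 30 nt of the exon, 0.398 ± 0.0718 in the middle, 0.478 ± 0.122 in the last 30 nt, and 0.333 ± 0.0213 in the first 50 nt of intron downstream (SD, n = 3). In each library the last 30 nt of the PE lay above the 50 nt of intron that follow, at 0.344, 0.582 and 0.508 against 0.316, 0.327 and 0.357 per kb. At the upstream edge replicate 1 went the other way, with 0.261 in the first 30 nt of exon against 0.335 in the intron before it. Cassette exons rose from 0.388 ± 0.0578 to 0.774 ± 0.333 per kb at the upstream edge, and canonical internal exons from 0.314 ± 0.0866 to 3.13 ± 1.83.

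**Figure D4:**
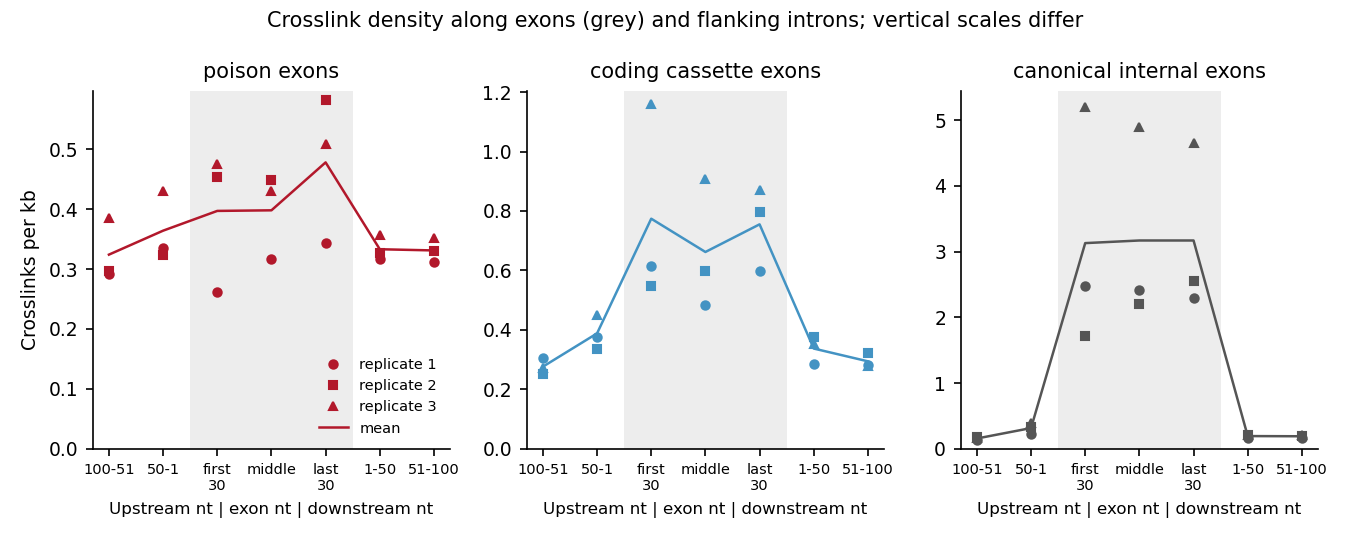
Crosslinks per kb (vertical) in 100 nt of intron on each side and in the first 30 nt, the middle and the last 30 nt of the exon (grey), for PEs, coding cassette exons and canonical internal exons. Symbols are libraries and lines join means of 3, and the vertical scales differ. The mean for PEs stays between 0.324 and 0.478 per kb, while canonical exons step from 0.314 to 3.13.

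Single PEs were then set against their host intron with the exact binomial test (two-sided, the share of length as the null), with Benjamini-Hochberg adjustment over all 29938 exons of the 3 classes that held at least 10 crosslinks together with their intron. This admitted 1949 PEs (21.7%), of which 1444 held no crosslink. The test takes crosslinks as independent and evenly spread along the intron. Its p therefore covers counting error and not clusters of crosslinks or the spread between testes. With the 3 libraries summed and the same direction asked for in each, 15 PEs (0.770% of those tested) were called higher and 2 lower. Over all exons 22.5% were called higher and 0.0267% lower, and 2.08% of cassette exons were called higher. When each library had to pass on its own, 1 PE was called, the one of Aatf, against 4.78% of all exons and 0.238% of cassette exons. Without replicate 2 this count was 3. The share called was thus lower in PEs than in cassette exons by either rule. The median summed log2 fold was -0.24 in PEs, -0.16 in cassette exons and 1.43 over all exons tested. As most PEs tested held no crosslink, their median is set mainly by the expected count.

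The 15 PEs called higher were 21 to 1078 nt long and held 4 to 14 crosslinks each, 103 in all. Their log2 folds over the host intron lay between 1.52 and 3.85. Of these PEs 12 had the stop codon inside, as did 1540 of the 1949 PEs tested. Each had at least 1 GAA, which 225 of the 1949 lacked. Over 4 GAA per 100 nt were found in 5 of the 15 and in 248 of the 1949. These counts were not tested. The PEs of Ccnl2, Fnbp4 and Ankrd13c held fewer than 10 crosslinks in the rest of the intron and reached the minimum only with those of the exon, which favours high exons. To show the RNA where crosslinks lay closest, the 30 nt with most crosslinks are printed for PEs of differing content. They run 5′ to 3′ on the strand of the gene in GRCm39, with each GAA in capitals. These stretches rest on few crosslinks, from 2 in Ankrd13c to 7 in Aatf, and not always on each library. That of Ankrd13c held 0, 2 and 0 in replicates 1, 2 and 3, and that of Ccnl2 held 1, 0 and 3. For Aatf, the exon is given from its first base to the stop codon that ends the line, and for Tsbp1 the exon is given whole.
Aatf (chr11:84348674-84348718, minus strand): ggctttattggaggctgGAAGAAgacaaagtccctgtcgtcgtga
Ccnl2 (chr4:155904186-155904215, plus strand): ttcgttctttgataagcctgaGAAgaggat
Ccdc91 (chr6:147434827-147434856, plus strand): gcggacagagctactgatgccaatgtgGAA
Fnbp4 (chr2:90598223-90598252, plus strand): taacctcggtGAAgttaagGAAaacttcgt
Smg6 (chr11:74819040-74819069, plus strand): atctatggtgagactgtgactcaaGAAagg
Ankrd13c (chr3:157695091-157695120, plus strand): atttacaggaGAAaaGAAGAAGAAgcaagg
Dnajb6 (chr5:29959552-29959581, plus strand): ggcatgggtgtGAAgagGAAcaagtcaccc
Tsbp1 (chr17:34675900-34675920, plus strand): ggtttgcaccGAAaggctggg
Hipk1 (chr3:103663946-103663975, minus strand): gaccacagggggagcgcaggagcagattca
Slx4 (chr16:3800958-3800987, minus strand): ggctggctagctcttcccatcagtcttttt
Agbl4 (chr4:110399437-110399466, plus strand): gttgatgtctactgtttctgcatctcacaa

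Over the 15 PEs, GAA was found on the sense strand in 11 of the 15 windows, against 44.1% of all windows of 30 nt in PEs, and the windows held 60 of the 103 crosslinks. The median share of purines was 61.9%, with extremes of 30% in Slx4 and 83.3% in Ankrd13c, whose windows held 6 and 2 crosslinks. The windows were chosen by their crosslinks, so these shares are a description. Those of Hipk1, Slx4, Agbl4 and Rev3l had no GAA, and their purines made up 70.0%, 30%, 36.7% and 66.7% of bases in that order.

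The PE of Aatf, whose protein is a nuclear factor that takes part in transcription and ribosome assembly, was the one called in each library on its own. It spans 190 nt of intron 9 (chr11:84348529-84348718, minus strand) with the stop codon at nt 43 to 45. The exon had 4, 6 and 4 crosslinks in replicates 1, 2 and 3, at 13 nucleotides, while the other 17956 nt of the intron held 27, 29 and 33. The 3 libraries were alike in showing an exon far above its intron, with 0.942 crosslinks expected over the 3 together. Its log2 fold over the intron was 2.52, 3.01 and 2.41 in the single libraries and 3.33 with libraries summed, where the added 0.5 weighs less. The adjusted p was 9.84e-11 summed and at most 0.00553 in a single library (exact binomial test). Against the exons of the canonical transcript, which held 19, 14 and 32 crosslinks in 1887 nt, the log2 fold was 1.04 and the PE was not called (adjusted p 0.322, exact test). The first 45 nt printed above, with 2 adjoining GAA, held 7 of its 14 crosslinks.

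Ccnl2 encodes cyclin L2, a cyclin of nuclear speckles that works with a kinase in splicing. Its PE of 261 nt in intron 5, found in 11 NMD transcripts, held 2, 6 and 3 crosslinks, while the rest of the intron held 3, 0 and 5. The exon was above the intron in each library, most in replicate 2. The log2 fold was 2.93 with a summed adjusted p of 9.72e-06 (exact binomial test).

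In Ccdc91, whose product acts in transport from the Golgi, a PE of 88 nt with its stop codon at nt 3 to 5 held 2, 1 and 6 crosslinks, while intron 3 held 12, 4 and 25 outside it. It had the highest log2 fold of the 15, at 3.85, with a summed adjusted p of 7.41e-12 (exact binomial test), and replicate 3 gave most of it. Agbl4 encodes a carboxypeptidase that trims glutamate chains from tubulin. Its PE of 91 nt held 2 crosslinks in each library and the long intron around it 44, 104 and 43, with a log2 fold of 3.28 and a summed adjusted p of 3.84e-07 by the exact test. The counts in the exon were the same in the 3 libraries, but with so few of them the single-library folds are set largely by the added 0.5 and are not given.

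Slx4 encodes the scaffold of nucleases that cut branched DNA in repair. Its PE of 264 nt lies after the stop codon of the NMD transcript and held 2, 3 and 6 crosslinks where intron 11 held 5, 5 and 9 outside it, with a log2 fold of 2.42 and a summed adjusted p of 8.74e-05 (exact binomial test). The exon was above the intron in each library. Rev3l, the catalytic subunit of the translesion polymerase zeta, had a PE of 128 nt in intron 1 with 2, 1 and 1 crosslinks against 24, 48 and 24, a log2 fold of 2.60 and a summed adjusted p of 8.85e-04 (exact test), and this call was lost without replicate 1 and against 500 nt of intron on each side (log2 fold 1.69, adjusted p 0.0638).

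Smg6 encodes the endonuclease that cuts mRNA in NMD. Its PE of 107 nt in intron 1 (chr11:74818991-74819097, plus strand) has 6.54 GAA per 100 nt. It held 3, 1 and 1 crosslinks, while the intron around it held 3, 5 and 4. The log2 fold was 2.48 with a summed adjusted p of 0.00229 (exact binomial test), and it was lost without replicate 1. Another PE of Smg6 in the same intron, of 233 nt, had counts of 1, 0 and 2 and did not pass (adjusted p 0.422, exact test).

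The kinase gene Hipk1 had a PE of 127 nt with the stop codon in a later exon. It held 2 crosslinks in each library where intron 8 held 6, 2 and 3 outside it, with a log2 fold of 2.95 and a summed adjusted p of 5.70e-05 (exact test). Fnbp4, which encodes a partner of formins, had the PE with most GAA among the 15, at 6.80 per 100 nt. It held 1, 4 and 1 crosslinks against 0, 1 and 6, and replicate 3 was hardly above its expected 0.710. The summed adjusted p was 0.00704 (exact test).

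The other PEs called held 4 to 7 crosslinks. They lay in Abcc12, a transporter gene, in Tsbp1, a gene expressed in testis, in Dnajb6, the gene of a chaperone partner, in Setd5, a gene of a chromatin protein with a SET domain, in Ankrd13c and in Dop1b. Their log2 folds were between 1.52 for Abcc12 and 2.24 for Ankrd13c. Among them the call of Abcc12 (summed adjusted p 0.0402, exact test) was lost when any single library was left out, that of Dop1b (0.0354) without replicate 1 or 3, that of Tsbp1 (0.0174) without replicate 1 or 3 and with each crosslinked nucleotide counted once (0.156), that of Dnajb6 (0.00939) without replicate 2 or 3, and that of Setd5 (0.0109) without replicate 3. That of Ankrd13c (0.0191) could not be tested with any library left out, as too few crosslinks remained. For the same reason Dop1b could not be tested without replicate 2, Hipk1 without replicate 1, and Fnbp4 without replicate 2 or 3. The calls of Hipk1 and Fnbp4 held in the runs where they could be tested. Those of Abcc12 and Dop1b were also lost with no minimum beyond 1 crosslink (0.0828 and 0.0738), and that of Abcc12 against 500 nt of intron on each side (0.0874) and against the intron without every annotated exon (0.0578). The calls of Aatf, Ccnl2, Slx4, Ccdc91 and Agbl4 held with each library left out.

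**Figure D5:**
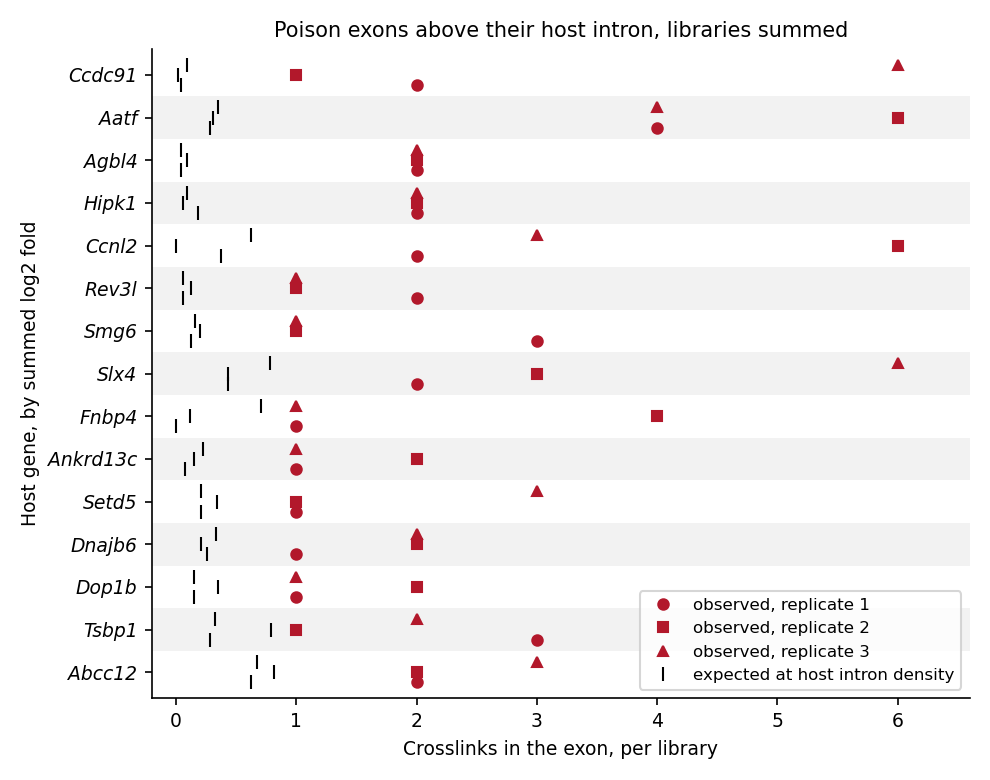
Crosslinks per library (horizontal) in the 15 PEs called above their host intron with libraries summed (vertical, by summed log2 fold). Red symbols are the observed counts of replicates 1, 2 and 3, and black ticks the counts expected at the density of the host intron. Aatf holds 4, 6 and 4 against at most 0.349 expected in a library, and most others hold 1 to 3 per library.

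In both PEs called lower, nearly all crosslinks of the intron lay in a single stretch. In Cdk8, the kinase of the Mediator complex, the PE of 150 nt in intron 2 held 0, 0 and 0 crosslinks where 21.2 were expected from 242, 629 and 329 in the rest of the intron (summed adjusted p 1.04e-08, exact test). Of those intron crosslinks 99.2% lay in 500 nt that end 1233 nt upstream of the PE, and without that stretch 9 crosslinks remained and 0.169 would have been expected. Polr2f, a subunit shared by the RNA polymerases, had 0, 0 and 0 in its PE where 7.75 were expected (adjusted p 0.00290, exact test), and 99.7% of its intron crosslinks lay in 500 nt ending 128 nt upstream. Most of these, 277, came from replicate 3, and the call was lost without it and when each crosslinked nucleotide was counted once (log2 fold -1.70, adjusted p 1.00). Outside the stretch 1 crosslink remained, and 0.0283 would have been expected in the PE. These stretches were sought after the calls were seen.

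Several PEs with many crosslinks were long and were not called against their intron. The PE with the most, in the centrosomal protein gene Cep126, is 1136 nt long and held 3, 7 and 5 crosslinks where 23.9 were expected in all, a log2 fold of -0.65 with an adjusted p of 0.193 (exact test). In Stk11, the gene of the kinase LKB1, a PE of 1310 nt held 4, 2 and 6 where the rest of its short intron held 1, 0 and 0. The expected count was 2.65 in all (log2 fold 1.99, adjusted p 0.348, exact test). Pfkp, a phosphofructokinase gene, had 2, 2 and 6 against 5.56 expected, and Nktr, the gene of a cyclophilin with an RS domain, 5, 1 and 4 against 16.5. P2rx3, an ion channel gene, had 1, 6 and 1 against 9.99, and 9430015G10Rik had 3, 1 and 5 against 11.9. The PEs of Stk11 and Pfkp lay above the expected count and the others below it. None of these 6 passed the test against the intron in either direction.

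PEs of genes for splicing and NMD factors were then taken as lists. Of 11 SR protein genes 6 had a PE under the rule, with 10 PEs in all, of which 7 held a crosslink and 7 could be tested. No member was called against its host intron, and the median log2 fold was -0.08 against -0.24 over all PEs tested, most of which held no crosslink. Together they held 10, 10 and 17 crosslinks, a ratio to the host introns of 1.16 ± 0.353 (SD, n = 3), which overlapped that of all PEs. The PE of Srsf5 held 3, 2 and 6 crosslinks (log2 fold 0.97, adjusted p 0.378, exact test). Those of Srsf4 and Srsf3 held 2, 1 and 4 and 1, 2 and 2, and a PE of Srsf11 held 1, 3 and 3. Each held a crosslink in every library, but none was separated from its intron.

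Among 84 genes of other splicing regulators, 41 had 75 PEs. Of these 21 held a crosslink and 37 could be tested, with 0 called against the host intron by the exact binomial test. The median log2 fold was -0.39 over the PEs tested, most of which held no crosslink. The ratio to the host introns was 1.28 ± 0.205 (SD, n = 3). Srrm2, the gene of a scaffold protein of nuclear speckles, had a PE with a low p. Its PE of 95 nt in intron 11 held 1, 6 and 0 crosslinks against 0.455 expected, with a log2 fold of 2.97 and a summed adjusted p of 4.00e-04 (exact test) and was not called because replicate 3 had none. The rest of that intron held 2, 0 and 1, so this PE too reached the minimum only through its own crosslinks. The PE of Ddx5, an RNA helicase gene, held 5, 1 and 3 against 8.12 expected and overlaps an exon of Gm56260, so its reads may belong to either.

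Of 22 genes of NMD factors 11 had 17 PEs, of which 3 held a crosslink. Smg6 was the only call among the 3 tested, and the 9 crosslinks of the list gave a ratio of 6.21, 0.861 and 2.57 in replicates 1, 2 and 3, too few to place the list above or below its introns. Of 47 meiosis genes 7 had 12 PEs, which held 1, 1 and 0 crosslinks, in Hormad2 and Trip13. No member of the latter list was called of 2 tested, and its crosslinks were too few to place it. The counts called higher than the host intron in the 4 lists, 0, 0, 1 and 0, stand beside 0.770% of all PEs tested. Against canonical exons, 1 of 9, 3 of 62, 1 of 12 and 0 of 6 tested PEs in the same order of lists were called lower with libraries summed. Over all PEs tested this share was 2.78%.

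Against the exons of the canonical transcript, 3891 PEs (43.4%) held enough crosslinks with them to be tested in the same way, over 81319 exons in all. With libraries summed 108 PEs (2.78%) were called lower and 1 higher, while 0.366% of all exons and 1.62% of cassette exons were called lower and 2.23% of all exons higher. The median summed log2 fold was -1.09 in PEs, -0.82 in cassette exons and -0.22 over all exons tested. Of the 3891 PEs tested 3095 held no crosslink. Their median is therefore set mainly by the expected count and does not measure a typical depletion. The PE called higher was that of Agbl4, with 8, 3 and 3 crosslinks in 1900 nt of canonical exons, a log2 fold of 2.47 and an adjusted p of 0.0159 (exact test).

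Only the PE of 1700019A02Rik was called lower in each library, where 0.00369% of all exons were. It held 1, 0 and 1 crosslinks in 329 nt, while the canonical exons held 44, 29 and 117 in 819 nt, a log2 fold of -4.94 with an adjusted p of at most 0.0161 in a single library (exact test). Without replicate 1 the number of PEs called lower was 3, and without replicate 2 it was 10. Among PEs with many crosslinks, those of Cep126 (log2 fold -2.22, adjusted p 6.69e-11), Nktr (-2.46, 4.66e-10) and Stk11 (-1.74, 5.97e-04) were also called below the canonical exons by the exact test on summed libraries. By the same test so were the PE of Srsf11 with 7 crosslinks (-2.11, 9.51e-05) and that of Zfand4. The latter held 0 crosslinks where its canonical exons held 20, 23 and 45 (adjusted p 1.58e-08, exact test).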

How the data were processed

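iCLIP of Tra2β was performed in 3 biological replicates of adult wild type mouse testis. The authors deposited whole-number counts of unique cDNAs per crosslinked nucleotide and strand, made with the iMAPS pipeline, unpooled and not normalised, with zeros not listed. Their processing notes named Trim Galore 0.6.7, Bowtie 1.3.1, STAR 2.7.9a, UMI-tools 1.1.2 and mm39. How reads with several matches in the genome were handled was not given in the sources used here, and repeats were not masked. All positions fitted GRCm39.

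Exons were built from GENCODE vM39. Crosslinks were summed by strand in each exon, in the rest of its intron, and in canonical exons. For a PE the rest of the intron left out other PEs but kept cassette exons, and for a cassette exon the reverse. For canonical internal exons the introns were kept whole. Without every annotated exon of the strand in the intron, the ratio of PEs to the host intron was 1.28. Expected counts are reference density times exon length, and log2 folds have 0.5 added to both. Exact binomial tests required at least 10 crosslinks. The members and gene lists were chosen with earlier results of these data known. Named PEs were those called, the 12 with most crosslinks among those hit in each library, list members with at least 5, and the 3 with most expected and 0 observed. Scripts (Python, NumPy, SciPy, pysam) were tested on simulated data. Replicates came from separate testes, so spread is between samples.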

Additional observations from a re-analysis of the deposited data

How the results depend on the processing

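No paired analysis was possible because the labels give 1 group. The ratio of PEs to the host intron lay between 1.21 and 1.29 under every alternative run. It was 1.29 without PEs of over 300 nt, an alternative added after seeing the data, and 1.21 to 1.26 with each library left out. The PE called in each library against the intron, Aatf, gave way to 0 with 500 nt of intron on each side, where 112 PEs could be tested, and to 0 without the 10 PEs with most crosslinks, which include Aatf. With each library left out this count was 1 to 3. The 15 PEs called with libraries summed became 8 with 500 nt on each side, 9 with at least 20 crosslinks, 10 without every annotated exon in the intron, where fewer PEs were tested, and 15 to 20 with each library left out. The 1 PE called lower than canonical exons in each library became 2 against internal canonical exons, and 1 to 10 with each library left out. The cause was not tested. The ratio to canonical exons, the difference from cassette exons, the ratio near GAA and that of PEs richest in GAA, whose alternatives were added after seeing the data, moved by less than their spread between libraries. Against internal canonical exons alone the ratio to canonical exons was 0.142 in place of 0.237. With a library left out they ranged from 0.172 to 0.286, from -1.12 to -0.77, from 1.04 to 1.17 and from 2.07 to 2.29. Among values for the 17 called PEs where they could be tested under these alternatives, 168 kept the call, 20 lost it and 0 changed direction. This tally includes alternatives that left the folds of these PEs unchanged, such as the longest single version (17 kept), so it overstates stability. With replicate 1, 2 or 3 left out, 10, 12 and 9 kept the call and 5, 2 and 6 lost it. Depth limits what can be said of single PEs, as the median expected count was 0.0438.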
